A study of Mus musculus with 24 samples.

Results

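Gene expression was compared between the start and the end state of a differentiation: mouse embryonic stem cells (ESCs) of the PaX line, and neural progenitor cells (NPCs) that were derived from them. The comparison used 4 of the 24 libraries, 2 of ESCs and 2 of NPCs, and every gene with a mean above 10 normalized counts over these 4 libraries, which left 15911 of 37315 genes. Neither population had received IFNγ. The methods of the study call its RNA-seq replicates independent. Neither they nor the labels say whether the 2 libraries of a population came from separate cultures, so the p-values measure only the spread between these libraries, part of which may be technical. The remaining libraries of the study came from NPCs undergoing reprogramming with or without IFNγ and entered 1 alternative fit alone.

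Both populations carry the same genome. PaX is a female line from a cross of M. musculus and M. castaneus (129S1/SvImJ and CAST/EiJ in the labels), so that reads can be assigned to the M. musculus X chromosome (X mus) or the M. castaneus X chromosome (X cas). A GFP reporter sits in the Hprt gene of X mus, and a truncation of Tsix on X mus directs inactivation to that chromosome. A red fluorescent reporter is driven by the Nanog promoter. A doxycycline-inducible cassette with cMyc, Klf4, Oct4 and Sox2 and its transactivator sit in the Sp3 locus. ESCs were grown in serum with LIF on gelatin. NPCs were cultured without feeders in RHBA medium with EGF, bFGF and a ROCK inhibitor, after SSEA1-positive cells had been depleted and cells negative for SSEA1, the Nanog reporter and X-GFP had been sorted at day 9 of differentiation. Low pluripotency and a silent X mus were thus in part selected in the NPCs. All libraries derive from 1 hybrid line, and gene counts cannot tell the endogenous Pou5f1, Sox2, Klf4 and Myc from the cassette.

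ESCs are kept in self-renewal by a network of transcription factors around Oct4, Sox2 and Nanog, which is sustained by LIF and STAT3 and opposed by FGF4 and ERK. Neural progenitors of the radial glia type express SoxB1 factors, proneural bHLH factors and Notch effectors, and their position along the neural axis is recorded in homeobox genes. Female ESCs carry 2 active X chromosomes, 1 of which is silenced during differentiation under the control of the long noncoding RNA Xist.

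The 4 libraries were similar in depth, with 27597387 to 30444975 reads counted on genes. Mitochondrial 16S ribosomal RNA (mt-Rnr2) took 9.44% and 9.02% of normalized counts in ESCs and 12.2% and 12.8% in NPCs. The ESC libraries differed from each other by a median of 0.0792 on the log2 scale over 10939 genes with a mean of at least 100 normalized counts, and 1 of these genes, the heat shock gene Hspa1b, differed at least 2-fold. The NPC libraries differed by a median of 0.127 over 11557 genes, and 130 genes differed at least 2-fold.

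Of the 15911 genes, limma called 6714 (42.2%) higher and 6905 (43.4%) lower in ESCs than in NPCs at an adjusted p under 0.1, together 85.6%. At least 4-fold differences were found for 1862 genes (11.7%) higher and 2806 genes (17.6%) lower in ESCs. In 91.9% of genes the ESC and NPC libraries did not overlap. The median log2 fold change over all genes was -0.03, where a positive value stands for a higher level in ESCs on the scale of log2(normalized count + 1). With 2 libraries a group, an exact two-sided permutation test of a single gene cannot go below p = 0.333, so calls rest on the spread that limma shares across genes. Genes with no more than 3 reads in both libraries of a population were taken to be at the floor, and their difference is given as a lower bound against 3 reads per library. Of all genes tested, 637 (4%) were called higher in ESCs and at the floor in NPCs, and 727 (4.57%) were called lower and at the floor in ESCs. Such genes passed the filter through the other population alone, so in every group below their direction is no result. In bulk libraries, fewer cells of a type and less RNA per cell cannot be told apart.

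The labels were checked against defining markers. All 8 ESC markers were higher in ESCs, with summed levels of 151511 and 144227 normalized counts in the ESC libraries against 101 and 63.2 in the NPC libraries. All 8 NPC markers were lower in ESCs, with sums of 4334 and 4478 against 90215 and 92079. The NPC libraries also held RNA of other lineages. The 5 fibroblast markers summed to 18.7 and 21.9 in ESCs and to 22966 and 34005 in NPCs, mostly from the collagen gene Col3a1. The 6 neuron markers summed to 9719 and 9203 in ESCs and 29151 and 24351 in NPCs. Of the astrocyte markers, Gfap and S100b had too few counts to be tested. The sums were alike, 269 and 293 against 221 and 271, but the 2 tested markers went opposite ways. Aqp4 had 0 and 0 in ESCs and 96.3 and 112 in NPCs, and Aldh1l1 had 260 and 281 against 122 and 158. The 4 oligodendrocyte markers summed to 186 and 260 against 613 and 494, and Sox10 and Mog stayed below the filter. Among endoderm and mesoderm markers, Foxa2 and T were high in NPCs, while Gata6, Sox17 and Mesp1 stayed below the filter. The other tested markers of these classes, Gata4 and Mixl1, were higher in ESCs. Gata4 had a log2 fold change of 2.67, and Mixl1, at the floor in NPCs, was at least 7.14-fold higher. The Y-linked genes Ddx3y, Eif2s3y and Kdm5d had no reads in any of the 4 libraries, and Uty had 2 reads in ESC replicate 2 and 2 in NPC replicate 1. The part of other cell types in the differences below was not tested.

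**Figure D1:**
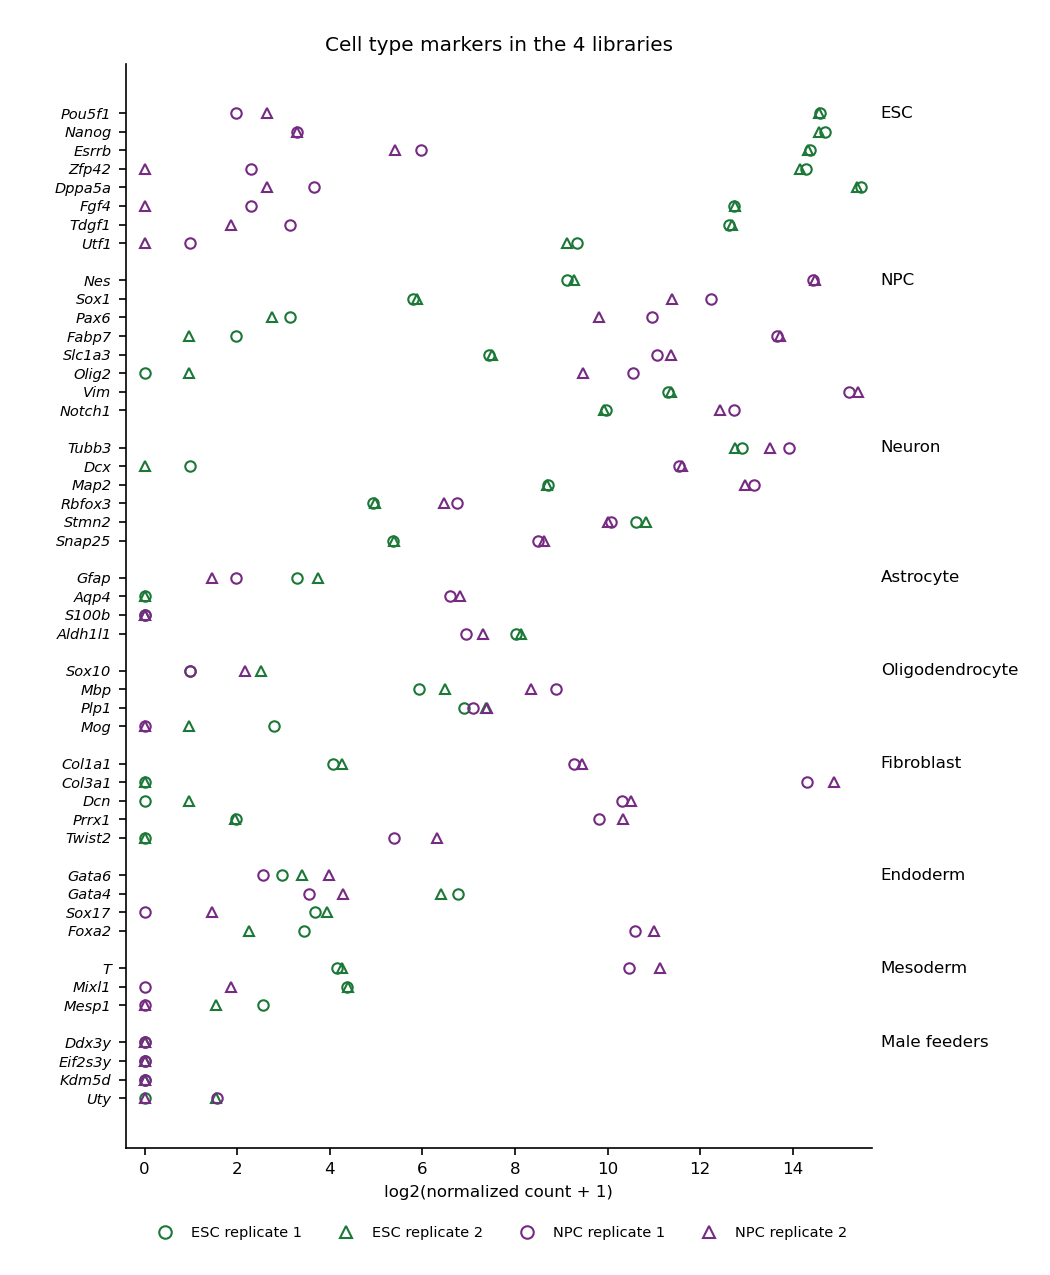
Level of each defining marker as log2(normalized count + 1) on the horizontal axis, with 1 symbol per library (green ESC, purple NPC; circles replicate 1, triangles replicate 2) and markers grouped by cell type. The 8 ESC markers lie far to the right in ESCs, the 8 NPC markers in NPCs, and Col3a1, Dcn, Prrx1, Foxa2 and T are high in NPCs alone, while the Y-linked genes stay at or near 0.

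The transcription factors of the pluripotency network were mostly higher in ESCs. Of 29 tested, 26 were higher in ESCs, against 42.2% of all genes tested, and 1 was lower (2 without NPC replicate 1). At least 4-fold higher were 22 of them, and 5 were at the floor in NPCs. Their median log2 fold change was 5.24, against -0.03 over all genes. Zfp42 (Rex1), a zinc finger gene of naive cells, had 19896 and 18326 normalized counts in ESCs and 3.89 and 0 in NPCs (log2 fold change 13.08 ± 0.69 (SE), adjusted p = 1.5e-05). Pou5f1, which encodes Oct4, had 24654 and 24376 normalized counts in ESCs and 2.92 and 5.27 in NPCs (log2 fold change 12.27 ± 0.23 (SE), adjusted p = 2.02e-06). Nanog had 26564 and 24098 normalized counts in ESCs and 8.75 and 8.78 in NPCs (log2 fold change 11.34 ± 0.10 (SE), adjusted p = 1.07e-06). The groups did not overlap, and no NPC library held 10 normalized counts of any of the 3.

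Tcl1, a coactivator of the AKT kinase, had 5262 and 4784 in ESCs and no reads in NPCs, at least 1809-fold higher (adjusted p = 1.95e-06). Esrrb, an orphan nuclear receptor that acts beside Nanog, kept a trace in NPCs, with 21337 and 20632 normalized counts in ESCs and 61.3 and 41.3 in NPCs (log2 fold change 8.68 ± 0.18 (SE), adjusted p = 2.11e-06). The members at the other end of the list hardly moved or went the other way. Sox2, which serves both stem cell states, had 8885 and 8433 normalized counts in ESCs and 8005 and 6399 in NPCs (log2 fold change 0.27 ± 0.11 (SE), adjusted p = 0.0612), and its call was lost without either ESC replicate (adjusted p = 0.353 and 0.249) or without NPC replicate 2 (log2 fold change 0.11, adjusted p = 0.166). With values rescaled to a common total the log2 fold change of Sox2 was 0.15 (adjusted p = 0.252), and with no filter its adjusted p was 0.104. Tcf3 was the member called lower in ESCs, with 2492 and 2568 normalized counts in ESCs and 7189 and 6444 in NPCs (log2 fold change -1.43 ± 0.07 (SE), adjusted p = 1.28e-05). In this annotation the symbol belongs to the gene of E2A, a partner of proneural bHLH factors, and not to Tcf7l1, the repressor of the pluripotency network that was also known as Tcf3. Tcf7l1 itself had 318 and 258 normalized counts in ESCs and 195 and 235 in NPCs (log2 fold change 0.42 ± 0.17 (SE), adjusted p = 0.0677), a call that was lost when any 1 of the 4 libraries was left out (adjusted p between 0.102 and 0.379) or the values were rescaled to a common total (0.164). Per kilobase of exon, Nanog, Pou5f1 and Zfp42 stood at 11298, 10905 and 10159.9 normalized counts in ESCs and Sox2 at 4209, whereas in NPCs Sox2 at 3501 was the highest of the list.

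The 4 factors of the cassette thus differed in how much of their RNA the NPCs already held. Pou5f1 was close to absent in NPCs and Sox2 was near its ESC level. Klf4 had 4602 and 4696 normalized counts in ESCs and 97.2 and 153 in NPCs (log2 fold change 5.24 ± 0.21 (SE), adjusted p = 6.11e-06). Myc was lower in ESCs, with 92.4 and 121 normalized counts in ESCs and 178 and 345 in NPCs (log2 fold change -1.22 ± 0.34 (SE), adjusted p = 0.0163), and its NPC libraries lay further apart than its ESC libraries. Without ESC replicate 1 or 2 the adjusted p of Myc was 0.212 or 0.129. Among 15 KLF genes, 10 were higher and 4 lower in ESCs. Klf2, a naive factor, had 4616 and 4604 normalized counts in ESCs and 12.6 and 28.1 in NPCs (log2 fold change 7.85 ± 0.34 (SE), adjusted p = 8.14e-06), and Klf9, Klf8 and Klf5 were also at least 4-fold higher. Klf12, Klf7, Klf6 and Klf3 went the other way, of which Klf6 lost its call without either ESC replicate (adjusted p = 0.151 and 0.206) and Klf3 without ESC replicate 1, ESC replicate 2 or NPC replicate 2 (adjusted p = 0.154, 0.419 and 0.358). Klf3 was also not called by DESeq2 or edgeR (adjusted p = 0.219 and 0.116), with a pseudocount of 0.1 or with no filter.

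Genes that accompany pluripotency behaved alike. Of 30 such markers, 29 (96.7%) were higher and 1 (3.33%) was lower in ESCs, against 42.2% and 43.4% of all genes tested. The median was 7.25, or 7.13 with floor genes at their bound. In NPCs 9 of the 30 were at the floor and passed the filter through their ESC counts alone. Dppa5a, an RNA-binding protein of pluripotent cells, had 45348 and 42802 normalized counts in ESCs and 11.7 and 5.27 in NPCs (log2 fold change 12.27 ± 0.31 (SE), adjusted p = 2.52e-06). L1td1, derived from a LINE-1 open reading frame, had 6930.0 and 6754 in ESCs against 1.94 and 0 in NPCs, at least 2464-fold higher (adjusted p = 6.88e-06). Trap1a, an X-linked tumor antigen gene, had 7399 and 7146 against 2.92 and 1.76, at least 2619-fold higher (adjusted p = 2.02e-06). The libraries of the groups were far apart for each.

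The heterochronic pair of LIN28 genes split. Lin28a had 7359 and 7361 normalized counts in ESCs and 645 and 377 in NPCs (log2 fold change 3.90 ± 0.24 (SE), adjusted p = 2.41e-05), whereas its paralog Lin28b had 2069 and 2175 normalized counts in ESCs and 3674 and 2583 in NPCs (log2 fold change -0.54 ± 0.16 (SE), adjusted p = 0.022), or adjusted p = 0.229 and 0.186 with ESC replicate 1 or 2 left out. Both block maturation of let-7 miRNAs. Of 6 DPPA genes 5 passed the filter, and of 41 RHOX homeobox genes of the X chromosome 7 did. All of these were higher in ESCs. In NPCs 4 of the 5 and 6 of the 7 were at the floor. Those genes passed the filter through their ESC counts alone, so their direction is no result. Dppa4 had 1630.3 and 1525 in ESCs and no reads in NPCs, and Rhox5 had 1618 and 1338 normalized counts in ESCs and 6.81 and 11.4 in NPCs (log2 fold change 7.22 ± 0.28 (SE), adjusted p = 5.55e-06). Near-identical copies exist in both families, and reads between copies may have been split by the counting.

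Genes of the formative and primed states, which ESCs pass on the way out of naive pluripotency, moved in both directions. Of 19, 9 were higher and 9 lower in ESCs (47.4% each, median -0.42), against 42.2% and 43.4% of all genes tested. The NODAL system led the higher ones. Lefty2, an inhibitor of NODAL that is also its target, had 13177 and 14071 normalized counts in ESCs and 3.89 and 0.878 in NPCs (log2 fold change 12.13 ± 0.43 (SE), adjusted p = 4.85e-06). Lefty1 was at least 2173-fold and Nodal itself at least 505-fold higher in ESCs (adjusted p = 2.32e-06 and 1.51e-05). The genes that were lower in ESCs are also neural or caudal genes. Otx2 had 464 and 364 normalized counts in ESCs and 4733 and 3088 in NPCs (log2 fold change -3.21 ± 0.22 (SE), adjusted p = 3.74e-05), Sox4 had 855 and 820.3 normalized counts in ESCs and 17289 and 15068 in NPCs (log2 fold change -4.27 ± 0.08 (SE), adjusted p = 2.02e-06) and the SOX partner Pou3f1 had 68.8 and 76.1 normalized counts in ESCs and 424 and 268 in NPCs (log2 fold change -2.20 ± 0.25 (SE), adjusted p = 0.000349). Fgf5, the classical primed marker, stayed below the filter, with 2.95 and 0.952 normalized counts in ESCs and 2.92 and 5.27 in NPCs. Zscan4c, a gene of the rare two-cell-like state, had 14.7 and 7.61 normalized counts in ESCs and 0 and 0 in NPCs, and none of its group passed the filter.

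**Figure D2:**
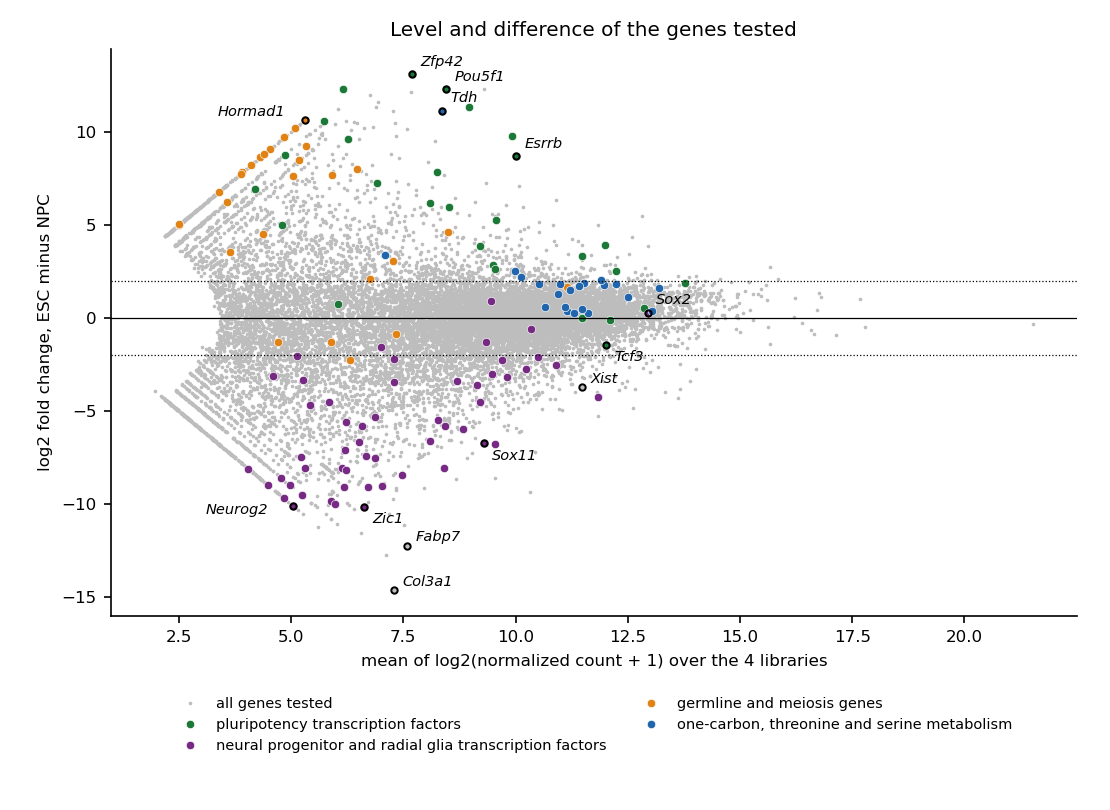
Each point is 1 of the 15911 genes, with its mean log2(normalized count + 1) over the 4 libraries on the horizontal axis and its log2 fold change, ESC minus NPC, on the vertical axis; dotted lines mark 4-fold. Pluripotency factors (green) reach 13.08 for Zfp42 and neural progenitor factors (purple) lie below 0 but for Sox2 and Gli2, and the straight edges are genes at 0 in 1 population.

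Germline and meiosis genes were also mostly higher in ESCs. Of 28 tested, 24 (85.7%) were higher and 4 (14.3%) lower, against 42.2% and 43.4% of all genes tested. The median was 7.20, or 5.78 with floor genes at their bound. In NPCs 16 of the 28 were at the floor. Those 16 passed the filter through their ESC counts alone, so their direction is no result. Many of these genes are silenced by promoter DNA methylation in somatic cells. Hormad1, a component of meiotic chromosome axes, had 1567 and 1545 in ESCs and no reads in NPCs, at least 560.5-fold higher (adjusted p = 2.26e-06). Sohlh2, a bHLH factor of early germ cells, had 1259.8 and 1061 and no reads in NPCs (at least 418-fold, adjusted p = 2.47e-06). Syce1, of the synaptonemal complex, had 794 and 861 and no reads in NPCs (at least 298-fold, adjusted p = 2.61e-06). Dazl, an RNA-binding protein of germ cells, had 1021 and 946 against 0 and 1.76 (at least 354-fold, adjusted p = 1.56e-05). Tfap2c, a factor shared by germ cells, trophoblast and naive cells, had 1718 and 1867 normalized counts in ESCs and 88.5 and 58 in NPCs (log2 fold change 4.62 ± 0.21 (SE), adjusted p = 9.24e-06). The 4 members that were lower in ESCs were Tdrkh, Brdt, Nanos3 and Taf9b, with log2 fold changes between -2.26 and -0.85. Taf9b was not called without ESC replicate 1, ESC replicate 2 or NPC replicate 2 (adjusted p = 0.103, 0.205 and 0.141).

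The promoters of this group were searched for a short element. The E-box CACGTG, which reads the same on both strands and is the binding motif of MAX and related bHLH proteins, was looked for in the 250 bases before and 50 bases after each RefSeq start site. It was found for 13 of the 25 germline genes with a promoter sequence (52%), against 11.5% of 11366 genes tested, 8.09% of all 27025 genes with such a sequence, 12.6% of genes at least 4-fold higher in ESCs and 8.06% of genes at least 4-fold lower. In the pluripotency factors it was found in 3 of 22 (13.6%) and in the neural progenitor factors in 4 of 40 (10%). Among germline genes that passed the filter, 10 of 12 with the element and 9 of 11 without it were higher in ESCs, with median log2 fold changes of 7.69 and 5.02. The motif was chosen after the levels of the group had been seen, and a match is a description of the sequence, not evidence of binding. The 100 bases before the start site are shown for the 5 genes with the highest levels in ESCs that hold the element there (RefSeq, GRCm38.p6, strand of the gene), with the element in capitals. They lie at chr3:95559577-95559676 (plus strand), chr10:88459487-88459586 (plus), chr13:112652311-112652410 (minus), chr6:49395439-49395538 (plus) and chrX:134476491-134476590 (minus).
Hormad1: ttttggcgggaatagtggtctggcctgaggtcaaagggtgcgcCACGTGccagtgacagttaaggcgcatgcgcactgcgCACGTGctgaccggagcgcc
Sycp3: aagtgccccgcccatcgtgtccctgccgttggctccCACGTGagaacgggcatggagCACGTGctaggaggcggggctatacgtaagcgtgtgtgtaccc
Ddx4: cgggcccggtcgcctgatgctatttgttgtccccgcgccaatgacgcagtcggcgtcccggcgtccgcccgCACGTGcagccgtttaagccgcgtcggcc
Stk31: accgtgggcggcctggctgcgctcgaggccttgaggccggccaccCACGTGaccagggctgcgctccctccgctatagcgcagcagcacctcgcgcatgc
Taf7l: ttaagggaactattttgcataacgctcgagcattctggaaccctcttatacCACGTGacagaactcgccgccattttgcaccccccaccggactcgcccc

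Sycp3, a lateral element protein of the synaptonemal complex, had 703 and 672 in ESCs against 0.972 and 0.878 in NPCs, and the RNA helicase gene Ddx4 had 489 and 441 against 1.94 and 0.878. Stk31 and Taf7l, both testis genes, had 398 and 384 and 236 and 213 in ESCs and no reads in NPCs. All were at the floor in NPCs. These genes, and the motif, were singled out after their values had been seen.

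The hairpin genes of miRNAs were lower in ESCs more often than higher. Reads at a hairpin in these libraries come from precursor or host RNA, not from the mature miRNA. Of 70 hairpin genes tested, 14 were higher and 50 lower in ESCs, 9 and 40 of them at least 4-fold (median -2.35), against 11.7% and 17.6% of all genes. The 7 with the largest differences in the ESC direction form the cluster from Mir290a to Mir295 on chromosome 7, whose mature products are the main miRNAs of mouse ESCs. Mir291b had 247 and 288 normalized counts in ESCs and no reads in NPCs, at least 96.4-fold higher (adjusted p = 4.58e-06), and Mir294 had 94.3 and 101 and no reads in NPCs (at least 35.2-fold, adjusted p = 7.94e-06). The other members of the cluster lay between these in ESCs and had at most 1 read in an NPC library. On the other side, Mir135a-2 had 0 and 1.9 in ESCs and 123 and 124 in NPCs, at least 42.5-fold lower (adjusted p = 9.67e-05). Mir124a-2, a hairpin of the neuronal miR-124, had no reads in ESCs and 70.0 and 40.4 in NPCs, and Mir219a-1 had none and 39.9 and 37.8. Of the 50 hairpins that were lower in ESCs, 28 lie in the imprinted region between Dlk1 and Dio3 on chromosome 12, such as Mir382 with 8.84 and 7.61 normalized counts in ESCs and 84.6 and 84.3 in NPCs (log2 fold change -3.21 ± 0.26 (SE), adjusted p = 7.38e-05). The hairpin genes were singled out after their values had been seen.

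The mature sequences of 6 hairpins of the cluster are shown, without that of miR-292, because their seeds define the family (RefSeq, GRCm38.p6, 5′ to 3′, bases 2 to 8 in capitals). The first 3 share the seed AAGUGCU, the next 2 have seeds that also open with AAGUGC, and the last has another seed by these positions.
mmu-miR-291a-3p: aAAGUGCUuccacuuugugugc
mmu-miR-294-3p: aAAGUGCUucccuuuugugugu
mmu-miR-295-3p: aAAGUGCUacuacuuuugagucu
mmu-miR-290a-3p: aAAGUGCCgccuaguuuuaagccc
mmu-miR-291b-3p: aAAGUGCAuccauuuuguuugu
mmu-miR-293-3p: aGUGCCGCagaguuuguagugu
Mir135a-2 and Mir219a-1, whose hairpin reads were higher in NPCs, encode products with other seeds. The same mature sequences also come from Mir135a-1 and Mir219a-2, and the level of the mature products was not measured.
mmu-miR-135a-5p: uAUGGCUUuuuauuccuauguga
mmu-miR-219a-5p: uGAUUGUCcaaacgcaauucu

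Metabolic genes of ESCs were higher as groups. All 22 genes of one-carbon, threonine and serine metabolism were higher in ESCs (median 1.65). Tdh, the threonine dehydrogenase on which mouse ESCs depend, had 15447 and 15777 normalized counts in ESCs and 6.81 and 5.27 in NPCs (log2 fold change 11.12 ± 0.15 (SE), adjusted p = 1.61e-06). Gcat, which acts on the product of Tdh, had 3138 and 2996 normalized counts in ESCs and 1370.0 and 1171 in NPCs (log2 fold change 1.27 ± 0.09 (SE), adjusted p = 4.6e-05), and the glycine cleavage enzyme gene Gldc had 8492 and 8754 normalized counts in ESCs and 4195 and 3647 in NPCs (log2 fold change 1.14 ± 0.08 (SE), adjusted p = 4.35e-05). Cbs, of transsulfuration, had 426 and 462 normalized counts in ESCs and 38.9 and 43 in NPCs (log2 fold change 3.41 ± 0.17 (SE), adjusted p = 1.32e-05). At the low end, Phgdh, which opens serine synthesis, differed little, with 3417 and 3441 normalized counts in ESCs and 2736 and 3020.2 in NPCs (log2 fold change 0.25 ± 0.07 (SE), adjusted p = 0.015), and was not called without ESC replicate 1 or 2 (adjusted p = 0.119 and 0.126) or with rescaled values (0.145).

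Glycolysis genes were higher for 21 of 30 and lower for 2 (median 1.16), the latter falling to 1 without ESC replicate 1, ESC replicate 2 or NPC replicate 1. Slc2a3, the high-affinity glucose transporter GLUT3, had 48173 and 47785 normalized counts in ESCs and 2175 and 543 in NPCs (log2 fold change 5.46 ± 0.59 (SE), adjusted p = 0.000269), and the platelet-type phosphofructokinase gene Pfkp had 11982 and 10603 normalized counts in ESCs and 703 and 584 in NPCs (log2 fold change 4.13 ± 0.11 (SE), adjusted p = 2.65e-06). Pfkm, the muscle-type subunit, went the other way with 812 and 843 normalized counts in ESCs and 1533 and 1500.4 in NPCs (log2 fold change -0.87 ± 0.07 (SE), adjusted p = 7.63e-05). The NPC libraries disagreed in this group: 23 of 30 genes were higher in NPC replicate 1, with a median of -0.34 for replicate 2 minus 1. Ldha had 34570.2 and 31821 normalized counts in ESCs and 24301 and 11219 in NPCs (log2 fold change 1.01 ± 0.34 (SE), adjusted p = 0.0323), so that its NPC libraries differed from each other by more than the ESC libraries differed from NPC replicate 1. Its call was lost without either ESC replicate (adjusted p = 0.278 and 0.235) and with DESeq2 (0.108). Of the metallothioneins, which bind zinc and other metals, Mt1 had 9523 and 7963 normalized counts in ESCs and 265 and 228 in NPCs and Mt2 had 7795 and 6648 normalized counts in ESCs and 85.6 and 134 in NPCs (log2 fold changes 5.14 and 6.06, adjusted p = 2.32e-06 and 4.85e-06). The brain member Mt3 was lower in ESCs (log2 fold change -1.68 ± 0.30 (SE), adjusted p = 0.00271).

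Cell adhesion was exchanged between the states. Of 34 epithelial junction genes, 28 were higher and 2 lower in ESCs (median 3.17; 4 lower without NPC replicate 1), and of 31 mesenchymal and neural adhesion genes 4 were higher and 26 lower (median -3.67). Cdh1, which encodes E-cadherin, had 10148 and 10289 normalized counts in ESCs and 271 and 379 in NPCs (log2 fold change 4.99 ± 0.15 (SE), adjusted p = 3.58e-06). Cdh2, which encodes N-cadherin, had 129.7 and 131 normalized counts in ESCs and 8250.4 and 7845 in NPCs (log2 fold change -5.93 ± 0.07 (SE), adjusted p = 1.44e-06). The 2 genes moved in opposite directions with no overlap. Claudin 4 (Cldn4) had 3008 and 3336 normalized counts in ESCs and 5.83 and 6.15 in NPCs (log2 fold change 8.82 ± 0.17 (SE), adjusted p = 2.02e-06) and Epcam had 2609 and 2469.5 normalized counts in ESCs and 39.9 and 39.5 in NPCs (log2 fold change 5.96 ± 0.12 (SE), adjusted p = 2.02e-06). Esrp1, the splicing regulator of epithelial cells, had 448 and 392 normalized counts in ESCs and 4.86 and 10.5 in NPCs (log2 fold change 5.67 ± 0.36 (SE), adjusted p = 2.99e-05).

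The repressors of E-cadherin that mark mesenchymal and neural cells were higher in NPCs. Zeb2 had 17.7 and 21.9 normalized counts in ESCs and 5623 and 5570.4 in NPCs (log2 fold change -8.08 ± 0.14 (SE), adjusted p = 1.95e-06) and Zeb1 had 474 and 456 normalized counts in ESCs and 3393 and 2796 in NPCs (log2 fold change -2.73 ± 0.11 (SE), adjusted p = 6.07e-06). Cdh11, a cadherin of mesenchymal and neural crest cells, had 2.95 and 2.85 in ESCs and 11972 and 15887 in NPCs, at least 4801-fold lower in ESCs (adjusted p = 1.67e-06). Among all 17 cadherins, Cdh1 and Cdh3 were the ones higher in ESCs and 13 were lower. The epithelial genes that went against their group were Cxadr and Ddr1, with log2 fold changes of -1.99 and -4.11. On the mesenchymal side Snai3, Itga7, S100a6 and the fibronectin gene Fn1 were higher in ESCs. Fn1 had 10505 and 10934 normalized counts in ESCs and 4295 and 5598 in NPCs (log2 fold change 1.13 ± 0.13 (SE), adjusted p = 0.000304). Of 9 keratins, 6 were higher in ESCs and none lower, with Krt17 at 844 and 655 against 0.972 and 1.76.

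**Figure D3:**
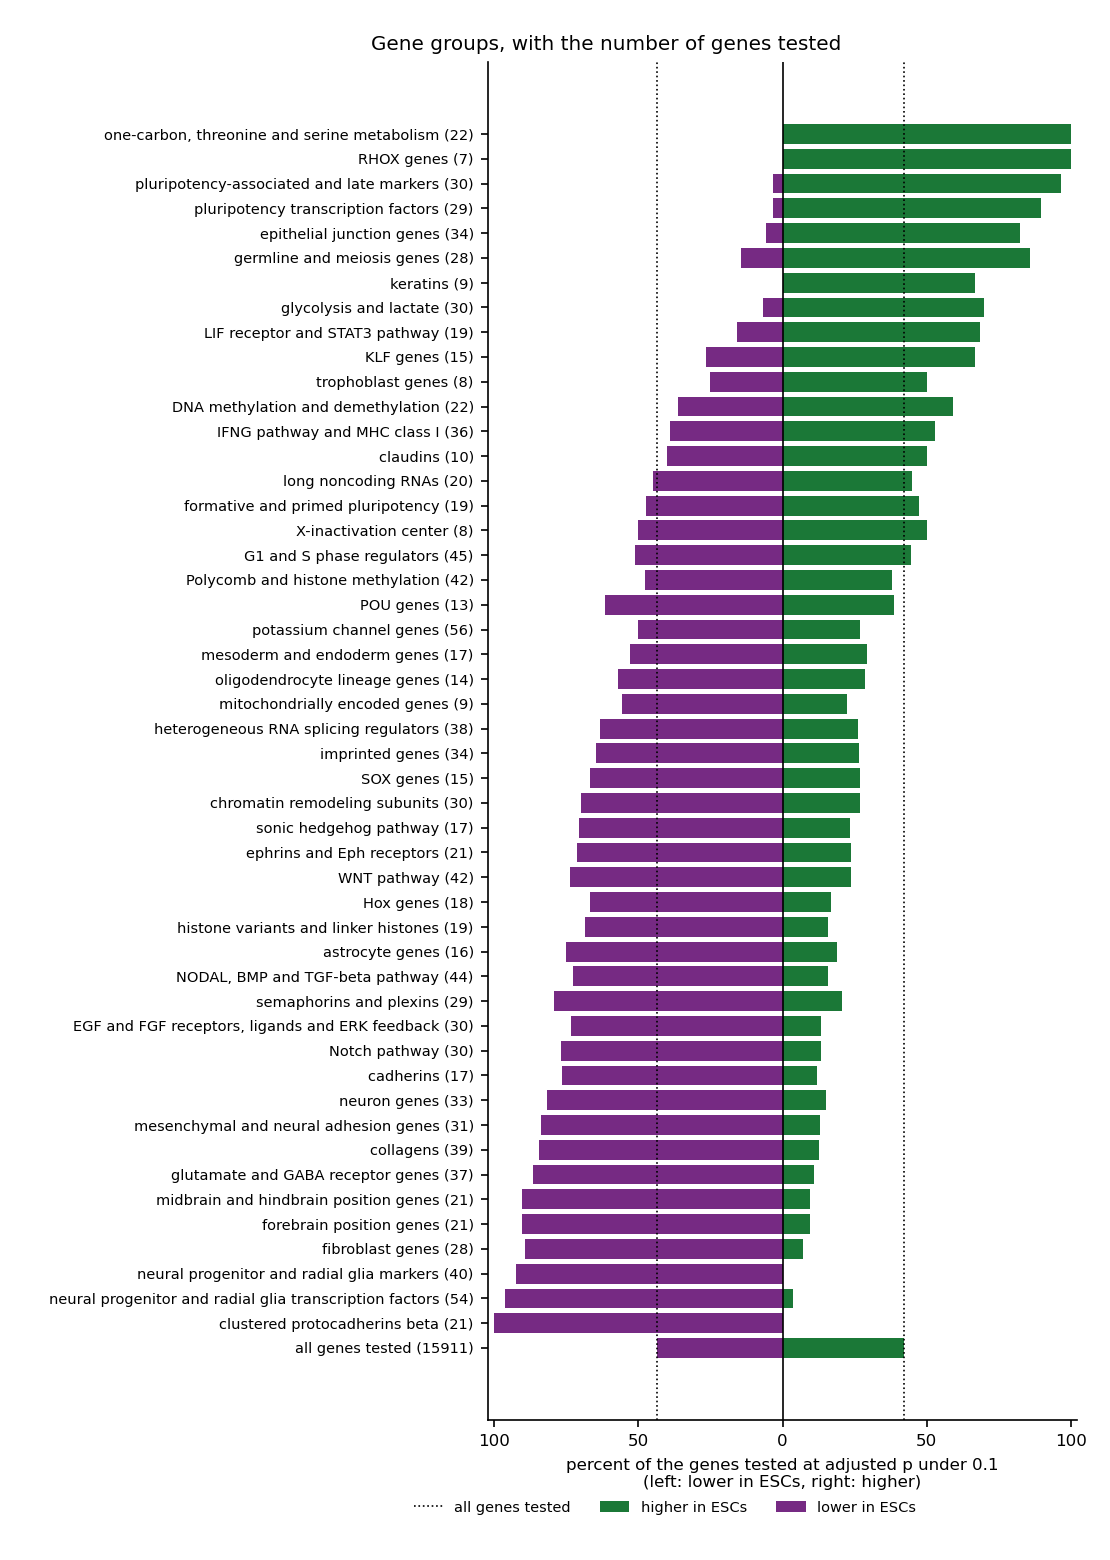
For each gene group with at least 7 genes tested (number in brackets), the bar to the right gives the percent of genes called higher in ESCs and the bar to the left the percent called lower, at an adjusted p under 0.1; dotted lines mark 42.2% and 43.4%, the shares over all genes tested. The lowest bar is that of all genes tested. Above it, groups are ordered by the difference of both shares, from all 22 one-carbon genes higher at the top down to all 21 beta protocadherins lower.

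On the side of the NPCs, 52 of 54 neural progenitor transcription factors (96.3%) were lower and 2 higher in ESCs (median -5.88). Over all genes tested 43.4% were lower. Of the 54, 12 were at the floor in ESCs and passed the filter through their NPC counts alone. Zic1, a zinc finger factor of the dorsal neural tube, had 1.97 and 1.9 in ESCs and 4525 and 2399 in NPCs, at least 1193-fold lower in ESCs (adjusted p = 3.96e-06). The proneural gene Neurog2 had no reads in ESCs and 1538 and 773 in NPCs (at least 398-fold, adjusted p = 5.5e-06). The ESC libraries were at the floor for both, and the NPC libraries differed almost 2-fold from each other.

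Pax6, of cortical and spinal progenitors, had 7.86 and 5.71 normalized counts in ESCs and 1989 and 893 in NPCs (log2 fold change -7.43 ± 0.40 (SE), adjusted p = 1.65e-05), and Olig2, of ventral progenitors, had 0 and 0.952 against 1489 and 703. The exceptions were Sox2, given above, and Gli2, a transcriptional mediator of hedgehog signals, with 968 and 956 normalized counts in ESCs and 675 and 388 in NPCs (log2 fold change 0.91 ± 0.25 (SE), adjusted p = 0.0152), whose call was lost without either ESC replicate (adjusted p = 0.187 and 0.181). The families of these factors did not move as 1. Of 15 SOX genes, 4 were higher and 10 lower in ESCs. Sox15 and Sox2 were higher in ESCs, Sox15 with 185 and 190.3 normalized counts in ESCs and 1.94 and 7.03 in NPCs (log2 fold change 5.28 ± 0.49 (SE), adjusted p = 0.000141). Sox11, of immature neurons, had 58 and 61.9 normalized counts in ESCs and 7338 and 5573 in NPCs (log2 fold change -6.71 ± 0.15 (SE), adjusted p = 2.2e-06), and the glial factor Sox9 had no reads in ESCs and 456 and 563 in NPCs. Per kilobase of exon, Sox2 in ESCs stood at 4209 and the next SOX gene, Sox13, at 230.4. In NPCs Sox2 at 3501 was joined by Sox4 at 3374, with Sox11, Sox1 and Sox21 at 777, 771 and 756.

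POU genes changed class. Of 13 tested, 5 were higher in ESCs, led by Pou5f1, and 8 were lower, led by the neural class III genes. Pou3f2 (Brn2) had 3.93 and 5.71 normalized counts in ESCs and 3357 and 2569.5 in NPCs (adjusted p = 2.69e-06) and Pou3f3 had 9.83 and 7.61 normalized counts in ESCs and 3729 and 2888 in NPCs (log2 fold change -8.41 ± 0.21 (SE), adjusted p = 2.47e-06). All 4 ID genes, which encode inhibitors of bHLH factors and are targets of BMP signals, were lower in ESCs. Id3 had 76.7 and 65.7 normalized counts in ESCs and 7624 and 7933 in NPCs (log2 fold change -6.76 ± 0.10 (SE), adjusted p = 1.67e-06). Nuclear factor I genes, which drive gliogenesis, were lower in ESCs for 3 of 4, with Nfia at 6.88 and 9.52 normalized counts in ESCs and 836 and 1008 in NPCs (log2 fold change -6.66 ± 0.24 (SE), adjusted p = 4.97e-06). Of 5 ZIC genes, 2 were higher in ESCs, Zic5 and another member that was at least 4-fold higher, whereas Zic1 and Zic4 were lower. The call of Zic5 was lost without either ESC replicate (adjusted p = 0.188 and 0.176).

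Of 40 neural progenitor and radial glia markers, 37 were lower and none higher in ESCs (median -3.90). Fabp7, the brain lipid-binding protein of radial glia, had 2.95 and 0.952 in ESCs and 12989.6 and 13491 in NPCs, at least 4563-fold lower in ESCs (adjusted p = 2.7e-06). The intermediate filament gene Nes had 558 and 619.5 normalized counts in ESCs and 22302 and 22866 in NPCs (log2 fold change -5.26 ± 0.07 (SE), adjusted p = 1.61e-06) and Vim had 2532 and 2649 normalized counts in ESCs and 37743 and 43344 in NPCs (log2 fold change -3.96 ± 0.08 (SE), adjusted p = 2.11e-06). The matrix gene Tnc had 1.97 and 0 against 1444 and 2353, at least 654-fold lower in ESCs. The NPC libraries were close for Nes and Fabp7 and further apart for Tnc. Hopx and Bcan, markers of late or outer radial glia and of mature glia, were among the 3 that were not called, Hopx being lower in ESCs in the fit of all 24 libraries (adjusted p = 0.0253).

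The Notch pathway, which keeps progenitors from differentiating, was lower in ESCs for 23 of 30 genes and higher for 4 (median -2.32). Of the ligands, Dll1 had 22.6 and 35.2 normalized counts in ESCs and 4466 and 2890.2 in NPCs (log2 fold change -6.94 ± 0.28 (SE), adjusted p = 6.65e-06) and Jag1 had 998 and 999 normalized counts in ESCs and 3284 and 3938 in NPCs (log2 fold change -1.85 ± 0.10 (SE), adjusted p = 1.5e-05). Of the receptors, Notch1 had 1005 and 963 normalized counts in ESCs and 6768 and 5477 in NPCs (log2 fold change -2.63 ± 0.11 (SE), adjusted p = 6.78e-06), and Notch4, an endothelial receptor, went the other way with 752 and 787 normalized counts in ESCs and 95.3 and 77.3 in NPCs (log2 fold change 3.15 ± 0.15 (SE), adjusted p = 1.16e-05). Of the targets, Hes5 had 9.83 and 5.71 normalized counts in ESCs and 2271 and 1109.5 in NPCs (log2 fold change -7.54 ± 0.41 (SE), adjusted p = 1.6e-05) and Hey1 had 51.1 and 40.0 normalized counts in ESCs and 1768 and 2425 in NPCs (log2 fold change -5.49 ± 0.20 (SE), adjusted p = 5.33e-06), and the libraries of the groups were apart for both. NPC replicate 1 held about 2-fold more Hes5 than replicate 2. The DNA-binding effector Rbpj differed little (log2 fold change 0.28 ± 0.09 (SE), adjusted p = 0.0306), and its call was lost without either ESC replicate (adjusted p = 0.152 and 0.235) and with rescaled values (0.183).

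Genes of rostrocaudal position were present from forebrain to hindbrain in the same NPC libraries. Of 21 forebrain genes, 19 (90.5%) were lower and 2 (9.52%) higher in ESCs (median -5.69, or -4.73 with floor genes at their bound). For 21 midbrain and hindbrain genes the counts were also 19 and 2 (median -5.57, or -5.21). Over all genes tested the shares were 43.4% and 42.2%. At the floor in ESCs were 10 genes of the forebrain list and 8 of the other. Those genes passed the filter through their NPC counts alone, so their direction is no result. Nkx2-1, of the ventral forebrain and hypothalamus, had no reads in ESCs and 466 and 331 in NPCs. En1, of the midbrain-hindbrain boundary, had 14.7 and 29.5 normalized counts in ESCs and 985 and 1337 in NPCs (log2 fold change -5.71 ± 0.35 (SE), adjusted p = 2.45e-05). The genes higher in ESCs were Hesx1 and Lhx6 of the forebrain list and Pax8 and Gbx2 of the other, of which Gbx2 was not called without ESC replicate 1, ESC replicate 2 or NPC replicate 1 (adjusted p = 0.192, 0.251 and 0.141), in the fit of all 24 libraries (0.136) or with DESeq2 (0.121). Hesx1 had 224 and 277 in ESCs and 0.972 and 0 in NPCs.

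Hox genes were called lower in ESCs for 12 of 18 (66.7%) and higher for 3 (16.7%), against 43.4% and 42.2% of all genes tested. Of the 18, 9 were at the floor in ESCs and 2 in NPCs, so the direction of these genes is no result. Hoxb2 had 0.983 and 0 in ESCs and 159 and 483 in NPCs (at least 111-fold, adjusted p = 7.4e-05), Hoxb3 had none and 83.6 and 263, and Hoxa2 had none and 61.3 and 187. These 3' members mark the hindbrain. The posterior genes Hoxc13 and Hoxd13 went the other way, with 72.7 and 57.1 and 54 and 38.1 in ESCs against 0 and 0 and 0.972 and 0.878 in NPCs. The Hox genes also had the largest median difference between the NPC libraries of all lists and families. Of the 18 Hox genes, 16 were higher in NPC replicate 2 and 14 of them at least 2-fold (median 1.59 for replicate 2 minus 1), whereas 16 of 21 forebrain genes were higher in replicate 1 (median -0.62). Fibroblast genes were higher in replicate 2 for 26 of 28 (median 0.44). Neural progenitor transcription factors were higher in replicate 1 for 38 of 54, 8 of them at least 2-fold (median -0.29), and neural progenitor markers were split 21 to 19 (median 0.01). Between the ESC libraries the medians of these 5 lists lay between -0.21 and 0.02. The comparison of replicates was made after the values had been seen, and it was not tested.

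**Figure D4:**
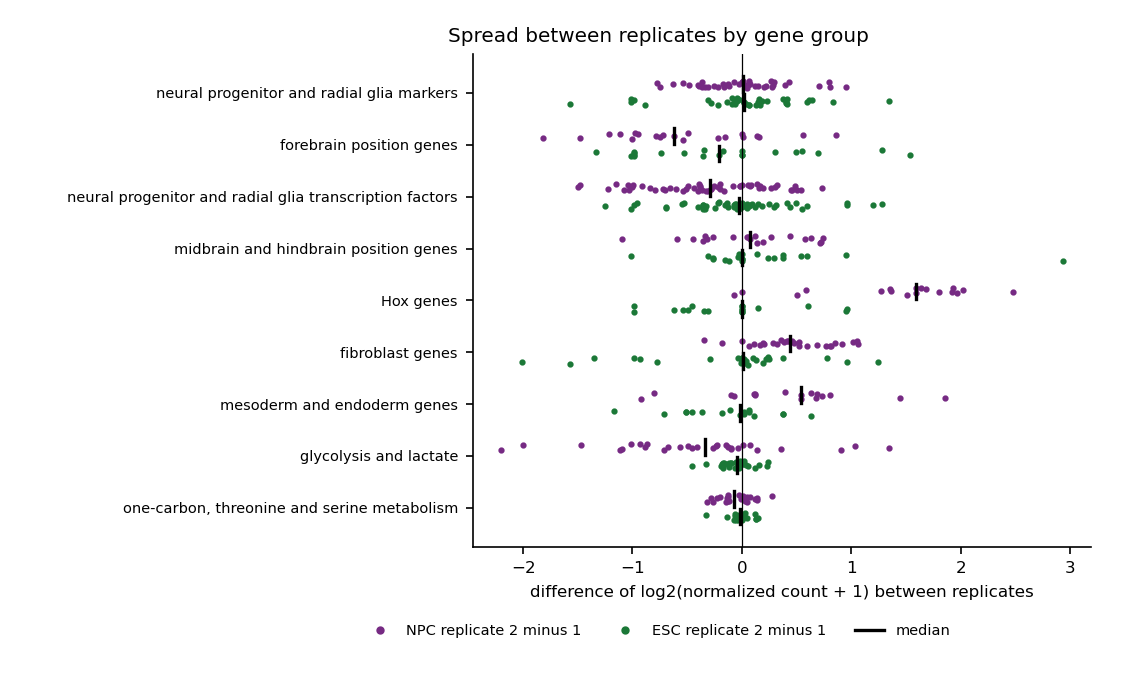
Difference between replicates, 2 minus 1, of log2(normalized count + 1) for each gene of 9 gene groups, NPC in purple and ESC in green, with the median as a black bar. In NPCs the Hox genes lie to the right (median 1.59) and the forebrain genes to the left (median -0.62), while the ESC points are centered near 0.

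Neuronal genes were also higher in NPCs. Of 33 neuron genes, 27 were lower and 5 higher in ESCs (median -3.07). Dcx, of migrating neuroblasts, had 0.983 and 0 in ESCs and 2967 and 3105 in NPCs, at least 1046-fold lower in ESCs (adjusted p = 3.96e-06), and the AMPA receptor gene Gria2 had none and 707 and 1022. Rbfox3, which encodes the mature marker NeuN, had 29.5 and 30.5 normalized counts in ESCs and 106 and 87.8 in NPCs (log2 fold change -1.65 ± 0.23 (SE), adjusted p = 0.000895). Nefh, Grin1, Slc17a7, Syn1 and Stmn2 were higher in ESCs, Nefh with 2042 and 1958 normalized counts in ESCs and 54.5 and 44.8 in NPCs (log2 fold change 5.31 ± 0.14 (SE), adjusted p = 2.65e-06). Slc17a7 was not called without ESC replicate 1, ESC replicate 2 or NPC replicate 2 (adjusted p = 0.336, 0.189 and 0.241), with no filter (0.106) or with DESeq2 (0.183). Receptor genes for glutamate and GABA were lower in ESCs for 32 of 37 (86.5%) and higher for 4 (10.8%). Of 56 potassium channel genes 28 (50%) were lower and 15 (26.8%) higher. Over all genes tested the shares were 43.4% and 42.2%, so the lower share of the channel genes was near that of all genes. At the floor in ESCs were 15 of the 37 and 13 of the 56, which passed the filter through their NPC counts alone.

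Astrocyte genes were lower in ESCs for 12 of 16 and higher for 3 (median -3.90). The glutamate transporter gene Slc1a2 had 0.983 and 0 in ESCs and 1960.3 and 1165 in NPCs (at least 539-fold, adjusted p = 7.72e-06), and Sparcl1 had 3.93 and 3.81 normalized counts in ESCs and 1351 and 2587 in NPCs (log2 fold change -8.59 ± 0.33 (SE), adjusted p = 5.9e-06). Apoe, a lipid carrier that ESCs also make, ran opposite, with 17148 and 16883 normalized counts in ESCs and 223 and 206 in NPCs (log2 fold change 6.31 ± 0.07 (SE), adjusted p = 1.38e-06). Gfap remained near 0 in all libraries, at 8.84 and 12.4 in ESCs and 2.92 and 1.76 in NPCs. In the oligodendrocyte lineage 8 of 14 genes were lower and 4 higher in ESCs, and the lower ones included the progenitor factors Olig2, Olig1 and Nkx2-2. The myelin genes Mobp and Cnp were higher in ESCs.

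Genes of axon guidance and of neuronal surface identity were higher in NPCs. All 21 beta protocadherin genes tested, a tandem array of neuronal adhesion genes, were lower in ESCs and at the floor there. They passed the filter through their NPC counts alone, so their shared direction is no result. Pcdhb19 had 0 and 0.952 in ESCs and 594 and 636 in NPCs, at least 212-fold lower in ESCs (adjusted p = 7.94e-06). These genes resemble each other in sequence, and their counts may share reads. Of 21 ephrins and Eph receptors, 15 were lower and 5 higher in ESCs, the latter falling to 3 without either ESC replicate, and the receptors split: Epha3 had 0.983 and 1.9 in ESCs and 2796 and 2346 in NPCs, whereas Epha2 had 3505 and 3426 normalized counts in ESCs and 617 and 754 in NPCs (log2 fold change 2.34 ± 0.11 (SE), adjusted p = 9.04e-06). Of 29 semaphorins and plexins, 23 were lower and 6 higher, with Sema6a at 8.84 and 9.52 normalized counts in ESCs and 2867 and 3379 in NPCs (log2 fold change -8.26 ± 0.17 (SE), adjusted p = 2.09e-06).

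Fibroblast genes were also mostly higher in NPCs. Of those tested 89.3% were lower in ESCs, against 43.4% of all genes tested, and 9 of the 28 were at the floor in ESCs. Of 28 fibroblast genes, 25 were lower and 2 higher in ESCs (median -5.38, or -4.20 with floor genes at their bound), the latter falling to 1 without ESC replicate 1, ESC replicate 2 or NPC replicate 1. Col3a1, a fibrillar collagen, had no reads in ESCs and 20145 and 30501 in NPCs, at least 8728-fold lower in ESCs (adjusted p = 1.71e-06). The proteoglycan gene Lum had none and 1389 and 1601, and Postn had 0.983 and 0 and 1915 and 2328. Of 39 collagens, 33 were lower and 5 higher in ESCs, the latter led by Col5a3 with 545 and 499 normalized counts in ESCs and 34 and 43 in NPCs (log2 fold change 3.73 ± 0.19 (SE), adjusted p = 1.38e-05). Shh, Foxa2 and T, which are genes of floor plate or notochord, were higher in NPCs as well. No list of floor plate or notochord genes was tested. Shh had no reads in ESCs and 1985 and 2825 in NPCs, at least 829-fold lower in ESCs (adjusted p = 2.42e-06). Foxa2 had 9.83 and 3.81 normalized counts in ESCs and 1549.9 and 2037 in NPCs (log2 fold change -7.95 ± 0.41 (SE), adjusted p = 1.32e-05), and T (Brachyury) had 16.7 and 18.1 in ESCs and 1400.2 and 2241 in NPCs (log2 fold change -6.59 ± 0.25 (SE), adjusted p = 5.54e-06). Whether the same cells held these RNAs and the neural ones was not tested. Of 17 mesoderm and endoderm genes, Foxa2 and T among them, 9 (52.9%) were lower in ESCs. Another 5 (29.4%), among them Hnf4a, Gata4 and Mixl1, were higher. The shares over all genes tested were 43.4% and 42.2%.

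Signaling genes differed pathway by pathway. LIF receptor and STAT3 genes were higher in ESCs for 13 of 19 and lower for 3 (median 1.19). Lifr had 2411 and 2576 normalized counts in ESCs and 1377 and 1907 in NPCs (log2 fold change 0.62 ± 0.15 (SE), adjusted p = 0.0102), or adjusted p = 0.13 and 0.167 without ESC replicate 1 or 2, and the STAT3 target Socs3 had 3227 and 3229 normalized counts in ESCs and 644 and 735 in NPCs (log2 fold change 2.23 ± 0.08 (SE), adjusted p = 5.54e-06). Jak2 and the CNTF receptor gene Cntfr went the other way, Jak2 with 302 and 307 normalized counts in ESCs and 2104 and 2301 in NPCs (log2 fold change -2.85 ± 0.09 (SE), adjusted p = 3.41e-06) and Cntfr with 23.6 and 18.1 normalized counts in ESCs and 813 and 741 in NPCs (log2 fold change -5.17 ± 0.20 (SE), adjusted p = 6.12e-06). Whether medium or cell state sets these levels cannot be told apart in this design.

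Genes of EGF, FGF and ERK signaling were lower in ESCs for 22 of 30 and higher for 4. Fgf4, the autocrine ligand that primes ESCs for differentiation, had 6776 and 6847 normalized counts in ESCs and 3.89 and 0 in NPCs (log2 fold change 11.59 ± 0.70 (SE), adjusted p = 2.36e-05). Erbb3 and the ERK target Etv5 were also higher in ESCs. The receptors of the added factors were lower in ESCs. Egfr had 72.7 and 82.8 normalized counts in ESCs and 1089 and 2107 in NPCs (log2 fold change -4.27 ± 0.31 (SE), adjusted p = 4.62e-05), with an almost 2-fold gap between the NPC libraries, and Fgfr3 had 23.6 and 22.8 normalized counts in ESCs and 1231 and 1205 in NPCs (log2 fold change -5.65 ± 0.15 (SE), adjusted p = 2.65e-06). The neuregulin receptor gene Erbb4 had no reads in ESCs and 1447 and 767 in NPCs. The ERK phosphatase Dusp6 had 280.1 and 238 normalized counts in ESCs and 5284 and 6874 in NPCs (log2 fold change -4.54 ± 0.15 (SE), adjusted p = 3.96e-06), and the inhibitor Spry4 had 81.6 and 113 normalized counts in ESCs and 813 and 1212 in NPCs (log2 fold change -3.35 ± 0.25 (SE), adjusted p = 5.17e-05).

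In the WNT pathway 31 of 42 genes were lower and 10 higher in ESCs. Wnt7b had 20.6 and 15.2 normalized counts in ESCs and 2554 and 1679.6 in NPCs (log2 fold change -6.79 ± 0.26 (SE), adjusted p = 5.56e-06) and Wnt5a had 18.7 and 16.2 normalized counts in ESCs and 2259 and 3629.8 in NPCs (log2 fold change -7.28 ± 0.25 (SE), adjusted p = 4.4e-06). Of the transcription factors of the pathway, Tcf7l2 was lower in ESCs (log2 fold change -3.23 ± 0.19 (SE), adjusted p = 2.27e-05) and Tcf7 was higher (log2 fold change 1.93 ± 0.14 (SE), adjusted p = 5.27e-05). The common target Axin2 had 425 and 496 normalized counts in ESCs and 2209 and 2032 in NPCs (log2 fold change -2.20 ± 0.10 (SE), adjusted p = 1.01e-05). In the NODAL, BMP and TGF-beta group, 32 of 44 were lower and 7 higher in ESCs. The higher ones were NODAL ligands, coreceptor and inhibitors (Lefty2, Lefty1, Tdgf1, Gdf3, Nodal) and the feedback genes Smad7 and Skil, the latter not called without ESC replicate 1 or 2 (adjusted p = 0.144 and 0.122) or with rescaled values (log2 fold change 0.04, adjusted p = 0.532). Tdgf1 (Cripto) had 6289 and 6590.2 normalized counts in ESCs and 7.78 and 2.64 in NPCs (log2 fold change 10.15 ± 0.40 (SE), adjusted p = 6.23e-06). Of the lower ones, Bmp5 had no reads in ESCs and 589 and 733 in NPCs, and Tgfb2 had 6.88 and 6.66 normalized counts in ESCs and 843 and 1289.6 in NPCs (log2 fold change -7.07 ± 0.26 (SE), adjusted p = 5.31e-06). Hedgehog genes were lower in ESCs for 12 of 17. The receptor and target Ptch1 had 739 and 861 normalized counts in ESCs and 5639.6 and 4333 in NPCs (log2 fold change -2.63 ± 0.14 (SE), adjusted p = 1.63e-05), and Gli1, the usual readout of the pathway, had 462 and 364 normalized counts in ESCs and 1293 and 796 in NPCs (log2 fold change -1.30 ± 0.24 (SE), adjusted p = 0.00315), or adjusted p = 0.103 without ESC replicate 2. All 5 IGFBP genes tested were lower in ESCs, with Igfbp5 at 33.4 and 40.0 normalized counts in ESCs and 13944 and 15659 in NPCs (log2 fold change -8.62 ± 0.12 (SE), adjusted p = 1.61e-06).

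Without IFNγ, 19 of 36 genes of its pathway and of MHC class I were higher and 14 lower in ESCs. These are 52.8% and 38.9%, against 42.2% and 43.4% of all genes tested. Both receptor subunits were lower in ESCs. Ifngr1 had 86.5 and 87.6 normalized counts in ESCs and 524 and 579 in NPCs (log2 fold change -2.65 ± 0.14 (SE), adjusted p = 1.55e-05) and Ifngr2 had 39.3 and 31.4 normalized counts in ESCs and 359 and 465 in NPCs (log2 fold change -3.50 ± 0.22 (SE), adjusted p = 2.97e-05). The kinase Jak2 was lower too. The inhibitors Socs3, Ptpn6 and Ptpn2 were higher in ESCs, Ptpn6 with 600.4 and 571 normalized counts in ESCs and 7.78 and 43.9 in NPCs (log2 fold change 4.88 ± 0.72 (SE), adjusted p = 0.00107).

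Irf1, the primary transcription factor target of the pathway, had 658 and 719 normalized counts in ESCs and 119 and 198 in NPCs (log2 fold change 2.16 ± 0.25 (SE), adjusted p = 0.000339). Oas1a, an antiviral enzyme, had 531 and 512 in ESCs and no reads in NPCs, at least 188-fold higher (adjusted p = 3.11e-06), and Bst2, which encodes tetherin, had 417 and 375 normalized counts in ESCs and 22.4 and 17.6 in NPCs (log2 fold change 4.25 ± 0.22 (SE), adjusted p = 1.37e-05). For antigen presentation, B2m had 262 and 259.8 normalized counts in ESCs and 749.7 and 958 in NPCs (log2 fold change -1.70 ± 0.14 (SE), adjusted p = 8.69e-05) and the peptide transporter gene Tap1 had 36.4 and 32.4 normalized counts in ESCs and 372 and 397 in NPCs (log2 fold change -3.45 ± 0.18 (SE), adjusted p = 1.54e-05), both lower in ESCs. The heavy chain gene H2-K1 had 1247 and 1239 normalized counts in ESCs and 1260.2 and 604 in NPCs and was not called (adjusted p = 0.185), although it was in the fit of all 24 libraries (adjusted p = 0.022) and without NPC replicate 1 (log2 fold change 1.04), and H2-D1 had 629.9 and 579.6 normalized counts in ESCs and 474 and 278 in NPCs (log2 fold change 0.73 ± 0.25 (SE), adjusted p = 0.0335), with a call lost without either ESC replicate (adjusted p = 0.274 and 0.217). For both heavy chain genes the NPC libraries differed from each other more than the ESC libraries did, and reads of these near-identical genes may be shared.

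Of 22 DNA methylation and demethylation genes, 13 (59.1%) were higher and 8 (36.4%) lower in ESCs, against 42.2% and 43.4% of all genes tested. Dnmt3l, the cofactor of de novo methylation, had 3421 and 3061 normalized counts in ESCs and 3.89 and 0 in NPCs (log2 fold change 10.52 ± 0.70 (SE), adjusted p = 3.51e-05). The methyltransferases exchanged: Dnmt3b had 2957 and 3093 normalized counts in ESCs and 486 and 395 in NPCs (log2 fold change 2.78 ± 0.11 (SE), adjusted p = 6.52e-06) and Dnmt3a had 1422 and 1446 normalized counts in ESCs and 4017 and 4642 in NPCs (log2 fold change -1.59 ± 0.08 (SE), adjusted p = 1.5e-05). The TET dioxygenases did so as well. Tet1 had 10285 and 11817 normalized counts in ESCs and 1601 and 1514 in NPCs (log2 fold change 2.82 ± 0.08 (SE), adjusted p = 3.26e-06), Tet2 had 8633 and 7768 normalized counts in ESCs and 2159.6 and 2116 in NPCs (log2 fold change 1.94 ± 0.07 (SE), adjusted p = 5.03e-06) and Tet3 had 298 and 344 normalized counts in ESCs and 2827 and 2667 in NPCs (log2 fold change -3.10 ± 0.10 (SE), adjusted p = 3.91e-06). Dppa3 (Stella), which protects from methylation, had 1791 and 1729 in ESCs and 0.972 and 0 in NPCs.

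Polycomb and histone methylation genes were higher in ESCs for 16 of 42 (38.1%) and lower for 20 (47.6%). Over all genes tested the shares were 42.2% and 43.4%. The chromobox subunits of PRC1 switched, with Cbx7 at 4563 and 5336 normalized counts in ESCs and 114 and 89.6 in NPCs (log2 fold change 5.60 ± 0.15 (SE), adjusted p = 2.58e-06), and with Cbx8 (-2.78) and Cbx2 (-1.39) lower in ESCs. Epop, a PRC2-associated protein of ESCs, had 7657 and 6791 normalized counts in ESCs and 373 and 235 in NPCs (log2 fold change 4.60 ± 0.21 (SE), adjusted p = 9.74e-06), and Phc2 of canonical PRC1 had 541 and 589 normalized counts in ESCs and 5948 and 5320.0 in NPCs (log2 fold change -3.31 ± 0.08 (SE), adjusted p = 2.56e-06). The methyltransferase gene Ezh2 differed little (log2 fold change -0.19 ± 0.08 (SE), adjusted p = 0.0775; not called without ESC replicate 1, ESC replicate 2 or NPC replicate 1, with no filter or with DESeq2), and its paralog Ezh1 was higher in ESCs (log2 fold change 1.61 ± 0.12 (SE), adjusted p = 4.89e-05). Remodeling subunits were lower in ESCs for 21 of 30. The subunits that form the neural BAF complexes were among them. Actl6b had 0.983 and 0.952 in ESCs and 176 and 143 in NPCs (at least 55-fold), while its counterpart Actl6a had 9894 and 9758 normalized counts in ESCs and 4773 and 4382 in NPCs (log2 fold change 1.10 ± 0.06 (SE), adjusted p = 2.11e-05). Smarca2 had 41.3 and 43.8 normalized counts in ESCs and 1304 and 1525 in NPCs (log2 fold change -5.02 ± 0.15 (SE), adjusted p = 3.18e-06) and Smarcc2 had 906 and 937 normalized counts in ESCs and 6256 and 6266 in NPCs (log2 fold change -2.76 ± 0.06 (SE), adjusted p = 2.11e-06), and Smarcc1 was not called.

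Among 19 histone variants and linker histones, 13 were lower and 3 higher in ESCs, the latter falling to 1 without ESC replicate 1 or NPC replicate 2. H1f0, the linker histone of slowly dividing cells, had 819 and 860.3 normalized counts in ESCs and 4941 and 2903 in NPCs (log2 fold change -2.17 ± 0.24 (SE), adjusted p = 0.000267), and the macroH2A genes H2afy and H2afy2, whose protein is enriched on the inactive X, had log2 fold changes of -1.37 and -2.22. Of 45 cell cycle genes of G1 and S phase, 20 (44.4%) were higher and 23 (51.1%) lower in ESCs. The shares over all genes tested were 42.2% and 43.4%. Ccne1 had 4942 and 5156 normalized counts in ESCs and 1244 and 1288 in NPCs (log2 fold change 2.00 ± 0.06 (SE), adjusted p = 3.54e-06). Ccnd2 had 2.95 and 2.85 in ESCs and 9301 and 7983 in NPCs, at least 2978-fold lower in ESCs (adjusted p = 1.67e-06), and Rb1 had 345 and 311 normalized counts in ESCs and 1830.0 and 1521 in NPCs (log2 fold change -2.34 ± 0.12 (SE), adjusted p = 1.33e-05). The CDK inhibitor gene Cdkn2a was not called. Of 38 splicing regulators, 24 were lower and 10 higher in ESCs, with Ptbp1 higher (log2 fold change 0.72 ± 0.06 (SE), adjusted p = 7.48e-05) and its neural paralog Ptbp2 lower (log2 fold change -1.44 ± 0.07 (SE), adjusted p = 1.27e-05).

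Imprinted genes were lower in ESCs for 22 of 34 and higher for 9. H19 had 110.1 and 116 normalized counts in ESCs and 16636 and 17334 in NPCs (log2 fold change -7.22 ± 0.07 (SE), adjusted p = 1.07e-06), Nnat had 47.2 and 51.4 normalized counts in ESCs and 36490.3 and 29763 in NPCs (log2 fold change -9.36 ± 0.11 (SE), adjusted p = 1.44e-06) and Peg3 had 2815 and 2879.7 normalized counts in ESCs and 46870.1 and 64637 in NPCs (log2 fold change -4.27 ± 0.15 (SE), adjusted p = 4.57e-06). Magel2 had 2.95 and 1.9 in ESCs and 989 and 1082 in NPCs. Igf2r and Grb10 were higher in ESCs, Grb10 with 839 and 816 normalized counts in ESCs and 86.5 and 126 in NPCs (log2 fold change 2.97 ± 0.20 (SE), adjusted p = 3.52e-05). Igf2, the neighbor of H19, had 108 and 124 normalized counts in ESCs and 444 and 466 in NPCs (log2 fold change -1.97 ± 0.15 (SE), adjusted p = 5.19e-05). Long noncoding RNAs were split 9 to 9 of 20 (45% each), against 42.2% and 43.4% of all genes tested. Platr14 and Lncenc1, which are linked to pluripotency, had 1461 and 1442 and 1182 and 1249.5 in ESCs and 4.86 and 5.27 and 9.72 and 6.15 in NPCs. Pantr1, transcribed beside Pou3f3, had no reads in ESCs and 1113 and 779 in NPCs.

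The X chromosome stood apart from the autosomes. Of 644 X-linked genes tested, 367 were higher and 197 lower in ESCs, and their median log2 fold change of 0.60 was the highest of all chromosomes, whereas the autosomes ranged from -0.31 to 0.11 (median -0.04 over 15050 genes). X-linked genes took 4.66% and 4.71% of normalized counts in ESCs and 3.04% and 3.10% in NPCs. The cells were sorted for loss of X-GFP, so silencing of X mus in NPCs was part of how they were chosen. Xist had 742 and 841 normalized counts in ESCs and 10743 and 10080.4 in NPCs (log2 fold change -3.72 ± 0.08 (SE), adjusted p = 2.2e-06). Tsix, which overlaps Xist on the other strand, had 825 and 751 normalized counts in ESCs and 5.83 and 11.4 in NPCs (log2 fold change 6.42 ± 0.32 (SE), adjusted p = 1.26e-05). The strand setting of the counting is not given in the sources used here, so reads of both genes cannot be told apart. In the rest of the X-inactivation center, the Xist activator Rlim had 9951 and 9763 normalized counts in ESCs and 5862 and 5979 in NPCs (log2 fold change 0.74 ± 0.05 (SE), adjusted p = 5.18e-05) and Ftx had 188 and 173 normalized counts in ESCs and 389 and 314 in NPCs (log2 fold change -0.95 ± 0.16 (SE), adjusted p = 0.00191).

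The proportion of allelic reads from X mus was deposited for 316 genes, with 1 value per gene and population and without the reads behind it, so it has no replicate error. In ESCs the median proportion was 0.481, and 299 genes lay between 0.25 and 0.75, a range whose upper side was set in part by how the authors selected genes. In NPCs the median was 0.00107, 289 genes lay under 0.1 and 131 were at 0. Xist itself came from X mus in both populations, with 0.999 in ESCs and 1.00 in NPCs. Apart from Xist, the highest proportions in NPCs were those of Kdm6a (0.349), Eif2s3x (0.347), Pbdc1 (0.322), Ogt (0.296) and Rpl10 (0.274). Kdm6a and Eif2s3x are known to escape X inactivation in mice. In ESCs Kdm6a was at 0.519 and Eif2s3x at 0.540.

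Of the 288 tested genes with an X mus proportion under 0.1 in NPCs, 176 were higher and 77 lower in ESCs in total level, with a median log2 fold change of 0.56. When each level was multiplied by the proportion from X cas, the median log2 difference over these genes was -0.27. For the 26 genes at 0.1 or more without Xist, 18 were higher and 6 lower, with medians of 0.56 in total and -0.16 from X cas. In ESCs, 17 genes lay outside 0.25 to 0.75, 14 of them below. The authors had selected the listed genes by a minimum share of expression from X cas in every population, which limits how many can lie above 0.75, so the split is no result. Rtl8b, Sox3 and Cited1 were at 0 in both populations, so that all their allelic reads came from X cas. Sox3, a SoxB1 factor of neural progenitors, had 41.3 and 51.4 normalized counts in ESCs and 609.7 and 434 in NPCs (log2 fold change -3.45 ± 0.23 (SE), adjusted p = 3.53e-05). Above 0.75 were Xist, Tmsb4x (0.782, and 0.00279 in NPCs) and 1810030O07Rik (0.780, and 0.218 in NPCs). Tmsb4x, which encodes an actin-binding peptide, had 12315 and 10654 normalized counts in ESCs and 23253 and 24823 in NPCs (log2 fold change -1.07 ± 0.09 (SE), adjusted p = 8.36e-05), higher in NPCs although almost all its allelic reads there came from X cas.

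**Figure D5:**
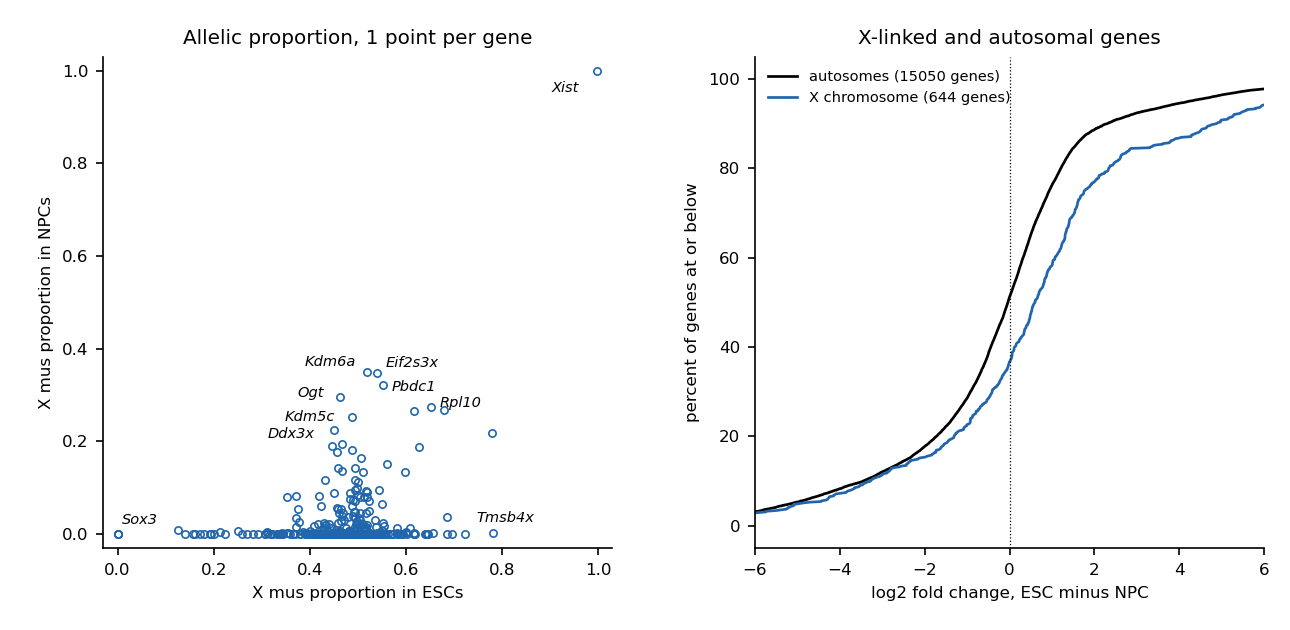
Left, X mus proportion of each of 316 genes in ESCs (horizontal) and NPCs (vertical), 1 point per gene; most lie near 0.5 in ESCs and near 0 in NPCs, with Xist at 1.00 and Kdm6a at 0.349 in NPCs. Right, cumulative percent of genes by log2 fold change, ESC minus NPC, shown from -6 to 6; the curve of 644 X-linked genes (blue, median 0.60) lies to the right of that of 15050 autosomal genes (black, median -0.04).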

How the data were processed

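RNA was measured by stranded, ribosomal RNA-depleted RNA sequencing. The authors deposited normalized counts per gene, a signal made from reads mapped by STAR with WASP filtering to an mm10 genome whose positions that vary between the strains were masked. HTSeq 0.6.1 counted the reads, and the authors scaled each library by a single DESeq2 size factor. In all 4 libraries 100% of values were whole multiples of 1 step within 0.01, so reads could be recovered. The authors also deposited X mus fractions, a proportion from 0 to 1 per gene and population. Whether replicates were pooled for them is not given in the sources used here, and their depth is unknown.

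Symbols and coordinates came from GENCODE vM21 (GRCm38/mm10), which held 35533 of the 37315 identifiers (95.2%). Its release may differ from that of the authors. Tests used limma 3.58.1 in R 4.3.3 (lmFit, eBayes with trend), two-sided, on log2(normalized count + 1), with genes above a mean of 10 and Benjamini-Hochberg adjustment over all 15911 genes at the study's threshold of 0.1. The SE is limma's moderated one. Alternatives were a pseudocount of 0.1, no filter, rescaling to a common total, 1 fit of all 24 libraries, the replicate block, each replicate left out, a threshold of 0.05, DESeq2 1.42.0 and edgeR 4.0.16 (quasi-likelihood test) on the recovered reads. The SE reflects the spread between libraries, which limma shares across genes, whereas the floors cover counting error only. The depth of 27597387 to 30444975 reads per library sets the floor.

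The 37 gene lists, 23 families and the members were chosen with earlier results of these data known. Genes were named by a rule: lead genes of each list, up to 4 with the largest difference each way per list or family (mean of at least 100, no overlap), the 15 largest each way overall (mean of at least 1000), members against the direction of their list, and X-linked genes with the 6 highest X mus proportions in NPCs or outside 0.25 to 0.75 in ESCs. Bcan, Ddx4, Gata4, Gcat, Hnf4a, Hopx, Hoxc13, Hoxd13, Hspa1b, Klf5, Mixl1, Mt3, Rpl10l, Rpl15, Rpl39l, Skil, Smad7, Sox13, Sox21, Stk31, Sycp3, Taf7l and the miRNA hairpin genes were named after their values had been seen. Some genes that the rule names are not reported here. Sequences came from RefSeq (GRCm38.p6).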

Additional observations from a re-analysis of the deposited data

How the results depend on the processing

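The counts of called genes stayed within 1.5 times under every alternative, with 5825 to 8270 genes higher and 6178 to 8436 lower in ESCs, and with 1762 to 2598 and 2739 to 3454 at least 4-fold. Of all calls, 87.7% (without ESC replicate 1) to 99.4% (pseudocount of 0.1) were kept. Rescaling the values to the same total moved the median of all genes from -0.03 to -0.15. The median of X-linked genes was 0.48 with no filter, 0.47 with rescaled values and 0.56 to 0.62 with each replicate left out. In place of the medians, the mean X mus proportion was 0.466 in ESCs and 0.0302 in NPCs, and over genes with a mean of at least 500 normalized counts the NPC median was 0.00238.

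Same-numbered libraries did not deviate together (r = 0.0185 over 15911 genes). With the replicate number as a block the fit called 6678 genes higher and 6895 lower, 1862 and 2806 of them at least 4-fold. Of the named genes, H2-K1 and Sox13 gained a call under the block (adjusted p = 0.0635 and 0.0723) and Klf3 lost its call (0.113). Of 247 named genes, 3 that were not called changed sign: Cdkn2a without NPC replicate 1 (-0.023), H2-K1 without NPC replicate 2 (-0.0197, against 1.04 without NPC replicate 1) and Smarcc1 with rescaled values (-0.048). Leaving out 1 library ended the call of 21 named genes, most of them with small differences; that fit assumes that the lone library varies like the others. Lists and families kept their counts within 1.5 times in 1386 of 1440 recomputed counts.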

Other observations

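Ribosomal protein genes, a group added after the data had been seen, were higher in ESCs without exception. All 82 tested were called higher (median log2 fold change 1.28), and their summed level was 1621565 and 1482725 normalized counts in ESCs and 630386 and 586952 in NPCs. The count stayed at 82 under each alternative setting. The retrogene copies Rpl10l and Rpl39l had 1331 and 1302 and 564 and 436 in ESCs and 0.972 and 0 and 0.972 and 0 in NPCs, whereas Rpl15 differed least, with 9701 and 9254 normalized counts in ESCs and 6399 and 6604 in NPCs (log2 fold change 0.54 ± 0.06 (SE), adjusted p = 0.000257). Reads can be shared between ribosomal protein genes and their many processed pseudogenes.

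Among other gene classes, small nucleolar RNA genes and processed pseudogenes leaned to ESCs. Of 190 small nucleolar RNA genes tested, 128 were higher and 27 lower in ESCs (median 1.22), and of 613 processed pseudogenes 391 were higher and 55 lower (median 0.91). Small nuclear RNA genes were split 8 to 9 of 28 (median -0.18). Antisense and long intergenic RNA genes leaned to NPCs, with 101 of 168 and 73 of 134 lower in ESCs (medians -1.09 and -0.67). Of 14153 protein-coding genes, 5893 were higher and 6330 lower (median -0.06). Over the 9 mitochondrially encoded genes tested, 2 were higher and 5 lower in ESCs, and the counts fell to 1 and 2 without either ESC replicate and the 5 to 1 without NPC replicate 2. All 9 were higher in NPC replicate 2 than in NPC replicate 1.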
